A study of Homo sapiens with 6 samples.

Results

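The transcriptome of control MDA-MB-231 cells was described from the 3 RNA-seq libraries, of 6 in the series, whose cells had received a non-targeting siRNA (siCTR). MDA-MB-231 is an established, invasive cell line derived from a human breast adenocarcinoma, and the series used this 1 line. Both groups of the series were transfected, and the other 3 libraries come from cells that received an siRNA against CSRP2 (siCSRP2), the gene of the actin-binding protein CRP2. The labels place RNA extraction 65 h after transfection, and the study's methods give a slightly later time. Since each control library received siRNA and transfection reagent, the values describe transfected control cells and not untouched ones. The labels and methods call the 3 libraries replicates, the study elsewhere calls them biological replicates, and the columns of the count table distinguish them by the codes 0412, 0611 and 1311, which recur in the siCSRP2 columns. The order of the codes is kept wherever 3 values are listed. Each library held the same 58395 genes.

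Breast epithelium is built from luminal cells, which face the duct and can carry hormone receptors, and from basal and myoepithelial cells, which contact the basement membrane and contract. Basal-like cancers lack the estrogen and progesterone receptors and amplified HER2. In the epithelial-mesenchymal transition, epithelial cells lose cell-cell junctions and gain vimentin, fibronectin and motility, and the line is widely used as a mesenchymal, invasive model of such a cancer.

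Gene levels are given in CPM, the count of a gene scaled to a library total of 1000000 counts, with the mean ± SD over the 3 libraries. Levels of different genes are compared as TPM, for which each count is first divided by the length of the gene, here that of all annotated exons joined, and then scaled to the same total as CPM. A gene is called expressed at 1 CPM or more in each of the 3 libraries, silent at 3 counts or fewer in each, and low otherwise. The totals were 25321830, 17336798 and 22101531 counts, so 3 counts were worth 0.118, 0.173 and 0.136 CPM, and a count of 0 allows a level of up to that. Counting error is all that this limit covers. Reads that match several places were not counted by the authors' tool, so levels of near-identical paralogs and of overlapping genes are uncertain. With 3 libraries no two-sided exact sign test can reach a p below 0.25, so the order of 2 genes is described by whether it held in all 3 libraries, with no p.

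The 6 markers listed for the line were present at high levels in each library. VIM (ENSG00000026025, chr10:17228241-17237593, plus strand of GRCh38), which encodes the intermediate filament protein vimentin, stood at 2262, 1638 and 1414 CPM. It was highest in library 0412, and the mean of 1771 ± 439 CPM ranked 27 among protein-coding genes. CD44 (ENSG00000026508, chr11:35138882-35232402, plus strand), the hyaluronan receptor, stood at 993, 954 and 842 CPM, and CAV1 (ENSG00000105974, chr7:116524994-116561179, plus strand), the coat protein of caveolae, at 873, 857 and 846 CPM. CAV1 varied least of the 6 markers, with an SD of 13.8 CPM around 859 CPM. MMP14 (ENSG00000157227, chr14:22836560-22849041, plus strand), a membrane-bound protease that degrades matrix, had 842, 681 and 511 CPM, and AXL (ENSG00000167601, chr19:41219223-41261766, plus strand), a receptor tyrosine kinase, had 607, 477 and 554 CPM. Both were highest in library 0412. EGFR (ENSG00000146648, chr7:55019017-55211628, plus strand), the epidermal growth factor receptor, had the lowest mean of the list, 300.5 ± 19.3 CPM, from 292, 287 and 323 CPM in the single libraries. All 6 markers were thus expressed, and per length VIM was above CAV1, CAV1 above MMP14 and MMP14 above AXL in all 3 libraries, whereas AXL and CD44 did not keep 1 order and EGFR came last (1434, 929.5, 614, 445, 389.8 and 78.9 TPM).

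Of 19773 protein-coding genes, 11682 were expressed (59.1%), 2043 were low and 6048 were silent (30.6%), and 4351 of the silent genes had 0 counts in all 3 libraries. Of 14367 genes of long non-coding RNA (lncRNA), 630 were expressed (4.39%). The number of protein-coding genes at 1 CPM or more was almost the same in each library, 11899, 11921 and 11917. By level, 75 genes had means of 1000 CPM or more and held 14.4% of all counts, 2341 genes lay between 100 and 1000 CPM with 53.8%, 7020 between 10 and 100 CPM with 28.9%, and 2507 between 1 and 10 CPM with 1.15%. Between 1014 and 1054 genes made up 50% of the counts of a library. Few genes sat at the limits of the classes, since 70 expressed genes had a lowest library of 1 to 1.1 CPM and 101 genes missed the class at 0.9 to 1 CPM, while 308 silent genes reached 3 counts and 227 others had a highest count of 4.

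**Figure D1:**
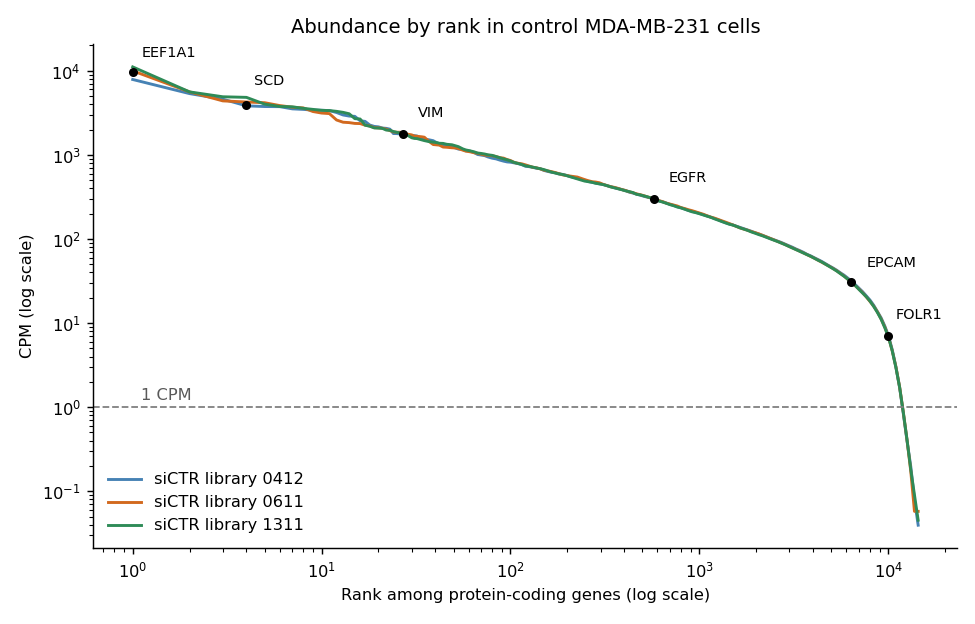
Level in CPM (vertical, log scale) of protein-coding genes against their rank (horizontal, log scale) in each of the 3 siCTR libraries, drawn as 1 line per library. Black points mark the mean CPM and rank of 6 named genes, from EEF1A1 at rank 1 to FOLR1 at rank 10008, the dashed line marks 1 CPM, and the 3 lines run together below about the first 100 ranks and cross 1 CPM between ranks 11899 and 11921.

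By CPM the most abundant gene was EEF1A1, the elongation factor that brings tRNA to the ribosome, at 9653 ± 1643 CPM. It was followed by the glycolytic enzyme gene ENO1 (5269 ± 587 CPM), beta-actin ACTB (4852 ± 484 CPM), the mitochondrial ribosomal RNA MT-RNR2 (4322 ± 427 CPM) and SCD (3882 ± 364 CPM), the desaturase that makes monounsaturated fatty acids. SCD kept a similar level in each library, 3472, 4168 and 4005 CPM. Glycolysis also placed PKM, LDHA and GAPDH among the first 20 (3578, 3479.6 and 2999 CPM), and the cytoskeleton TMSB4X, which binds actin monomers, ACTG1, TUBB and the actin cross-linker FLNA (3793, 3526, 3306 and 2437 CPM). Others were S100A6, MT-CO1, MT-ND4, MT-CO2, the chaperone HSP90AB1, fibronectin FN1 and AKR1B1, the aldose reductase gene described further on for its spread. The first 20 genes, 1 of them not named here, held 7.05%, 7.15% and 7.72% of the counts, a mean of 7.30% ± 0.361. Genes of the mitochondrial genome held 1.85% to 2.44% and those of cytosolic ribosomal proteins 2.98% to 3.24%.

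Per length, short mRNAs moved up, and 10 of the 20 genes of highest TPM were the same as by CPM. MT-CO2, a subunit of cytochrome c oxidase, led with 17538 ± 2376 TPM, and 10 of the 20 came from the mitochondrial genome. The highest nuclear gene was S100A6, a calcium-binding protein, at 14837 ± 2165 TPM. TMSB10 and TMSB4X, the thymosins that sequester actin monomers, had 10882 ± 1250.0 TPM and 9328 ± 1089.9 TPM, the ferritin light chain FTL 9018 ± 1852 TPM, and S100A4, a relative of S100A6 linked to metastasis, 4126 ± 513 TPM. CST1, which encodes the secreted cysteine protease inhibitor cystatin SN, completed the 20 with 3563, 4575 and 3382 TPM in the 3 libraries, a mean of 3839.9 ± 643 TPM. With all exons joined, an inhibitor best known from saliva thus stood near elongation factor EEF1A1 (4016 TPM), although EEF1A1 was first by CPM. This nearness rests on the lengths used, and reads that CST1 shares with its close relatives were not counted. With the length of the canonical transcript in place of all exons, 15 of these 20 remained among the first 20.

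Among lncRNA genes, NEAT1, the scaffold of nuclear paraspeckles, and NORAD, which binds Pumilio proteins, were the most abundant by CPM, with 580.3 ± 147 CPM and 564 ± 97.1 CPM. NEAT1 was highest in library 1311 (469.9, 524 and 747 CPM) and NORAD in library 0412 (643, 592 and 455 CPM), so the pair did not keep 1 order by CPM. They were followed by SNHG29 and MALAT1 (304 and 196 CPM). Per length NEAT1 did not lead, since NORAD and SNHG29 were both above it in all 3 libraries. Their means were 437 and 142 TPM against 107 TPM for NEAT1, and MALAT1 had 78.7 TPM. All lncRNA genes together held 0.710% to 0.736% of the counts, in libraries made from mRNA.

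The receptors that define hormone-dependent breast cancer gave 3 counts or fewer in each library. ESR1, the estrogen receptor alpha gene, had 1, 0 and 0 counts, and PGR, the progesterone receptor gene, had 0, 0 and 0 counts. Both were silent. ESR2, estrogen receptor beta, was low, and its counts of 24, 37 and 81 differed between libraries. ERBB2, which encodes HER2, was expressed at 99.5, 87.3 and 82.6 CPM, a level at rank 2726 among protein-coding genes and, per length, below that of its relative EGFR (36.4 against 78.9 TPM). GRB7, the neighbour of ERBB2 on chromosome 17 that is amplified together with it, had 4.48 ± 1.85 CPM.

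Of 20 luminal genes listed, 15 were expressed (75%, against 59.1% of all protein-coding genes), 2 low and 3 silent, with the keratins of simple epithelium highest. KRT18 and KRT8, partners in the filaments of luminal cells, had 823, 593 and 610.4 CPM and 1171, 914 and 971 CPM. Both were highest in library 0412 and ranked 143 and 73 among the 19773 protein-coding genes by CPM. The annotated spans of these 2 genes overlap on chromosome 12. KRT19 and KRT7 had 401 ± 62.2 CPM and 409 ± 80.2 CPM. Per length KRT18 was above KRT19 in all 3 libraries (922 against 719 TPM), whereas the place of KRT8 depended on the length used, since it lay below KRT19 with all exons (620.0 TPM) and above it with the canonical transcript (1368 against 690.2 TPM). The luminal transcription factors divided. GATA3 had 12.1, 14.1 and 17.8 CPM, SPDEF 38.6 ± 4.12 CPM and the epithelial factor EHF 159.7 ± 16.6 CPM, and each was expressed. FOXA1, which opens chromatin for the estrogen receptor, had 0, 0 and 1 counts, and ELF5 and TBX3 had 0 counts in each library. The epithelial regulators ESRP1, which controls splicing, and GRHL2 were low, with 3, 4 and 0 counts and 4, 2 and 2 counts. The secreted luminal products AGR2, TFF1 and TFF3 were all expressed (87.7, 2.11 and 3.17 CPM).

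Basal genes differed widely in level. The adhesion genes LAMB3, ITGA6 and ITGB4 were high, P-cadherin CDH3 had 3.59 CPM, and several basal keratins were near or below the limit of detection. Of 15 listed, 9 were expressed, 4 low and 2 silent, a share near the 59.1% of all protein-coding genes. LAMB3, a chain of the basement membrane laminin, had 462, 547 and 663 CPM. ITGA6 and ITGB4, which form the integrin of hemidesmosomes that binds this laminin, had 468 ± 61.2 CPM and 247 ± 8.77 CPM. All 3 were above 100 CPM in each library. Keratins of basal cells stood far lower. KRT5 had 6, 0 and 1 counts and KRT14 10, 6 and 9 counts, KRT6A 0, 0 and 1 counts, and KRT6B had 0 in each. KRT17 reached 1.64 ± 0.373 CPM and was the only one of these 5 keratins to be called expressed. KRT15, a keratin of stratified epithelium, was also expressed (3.23 CPM). TP63, the master regulator of basal cells, was low (1.26, 1.9 and 0.905 CPM), while the basal factors SOX9 and FOXC1 were expressed (87.4 and 14.1 CPM). Of 7 myoepithelial genes, MYLK, OXTR, TAGLN and ACTA2 were expressed (135, 12.3, 6.54 and 3.37 CPM), whereas CNN1 and MYH11, proteins of the contractile apparatus, and MME, the surface enzyme CD10, were silent.

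**Figure D2:**
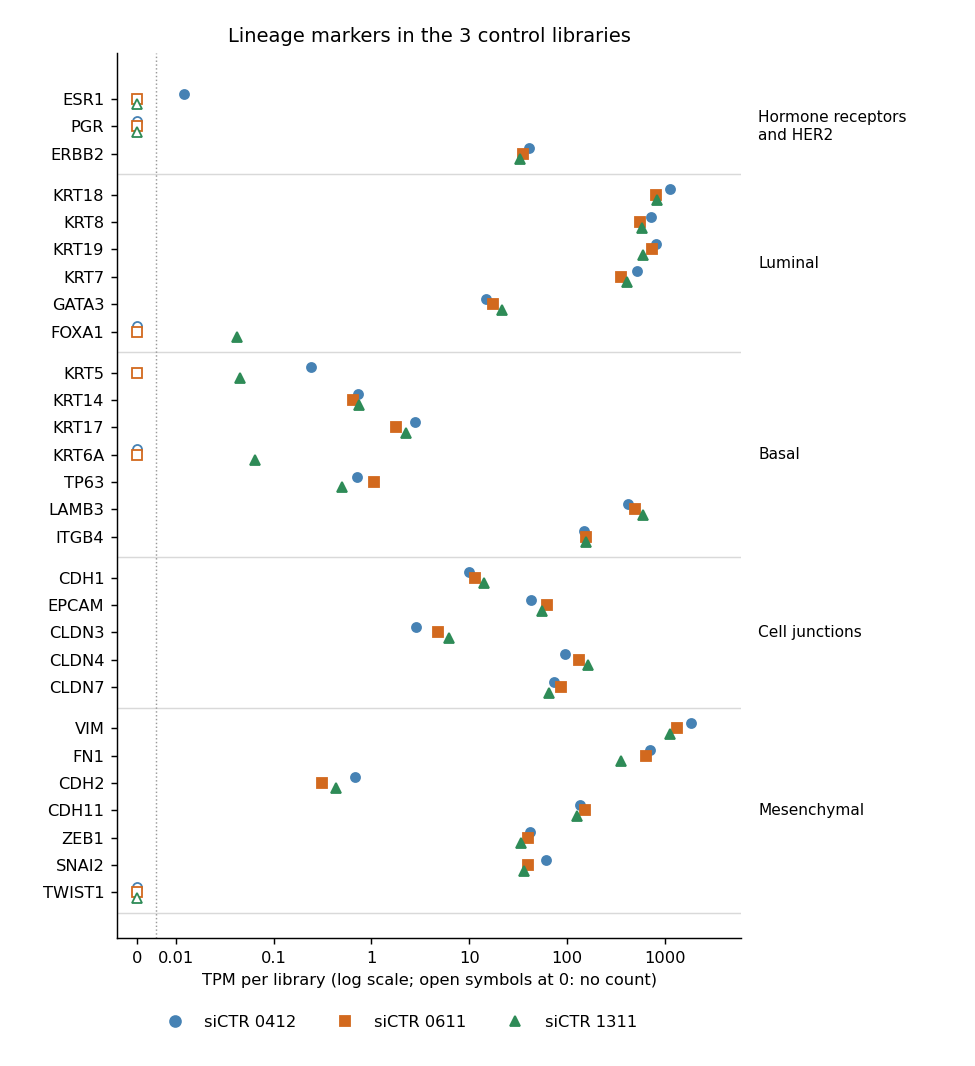
Level in TPM (horizontal, log scale, with 0 drawn left of the dotted line as open symbols) of 28 lineage markers, 1 row per gene and 1 symbol per siCTR library, grouped into receptors, luminal, basal, junction and mesenchymal genes. VIM, FN1, KRT18, KRT8, KRT19 and KRT7 lie above 100 TPM in each library, and ESR1, PGR, FOXA1, KRT6A and TWIST1 lie at or near 0.

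Genes of epithelial junctions were expressed for 20 of 25 listed (80%, against 59.1% of all protein-coding genes), with 3 low and 2 silent. CDH1, which encodes E-cadherin, the defining adhesion protein of epithelia, had 14.3, 16.7 and 20.8 CPM, and EPCAM, an adhesion protein of epithelial cells, 24.7, 36.2 and 32.4 CPM. Both were therefore expressed in each library, at ranks 8193 and 6378 of 19773. The catenins that link cadherins to actin were far more abundant, with CTNNA1 at 972 ± 55.4 CPM, CTNNB1 at 613 ± 75.2 CPM and CTNND1 at 334 ± 22 CPM. Desmosomal DSP and JUP had 277 ± 41 CPM and 129 ± 19 CPM, whereas PKP1, a plakophilin of stratified epithelia, had 2, 0 and 0 counts. At the tight junction CLDN4 and CLDN7 were expressed (146 and 44.8 CPM), as were TJP1, OCLN and F11R (115, 15.3 and 38.2 CPM). CLDN3 and CRB3 were among the low genes, and MARVELD3 was silent. A claudin-low tumour is defined by low levels of CLDN3, CLDN4, CLDN7 and CDH1. Here these 4 genes stood at 4.61, 129.6, 75.4 and 11.9 TPM, so CLDN4 was above the others in all 3 libraries and CLDN3 below them.

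Mesenchymal genes were expressed for 17 of 20 listed (85%, against the same 59.1%). FN1, fibronectin, had 2870.0, 2597 and 1476 CPM, highest in library 0412 and lowest in 1311. CAVIN1, a caveolar protein, had 677 ± 70.6 CPM, and TGFBI, a matrix protein induced by TGF-beta, 477, 266 and 146 CPM. TGFBI also was highest in library 0412. Of the transcription factors that repress CDH1, ZEB1 had 79.4 ± 7.82 CPM, SNAI2 35.9 ± 10.4 CPM, ZEB2 16.9 ± 2.41 CPM and SNAI1 4.98 ± 3.33 CPM, whereas TWIST1 and TWIST2 had 0 counts in each library. The cadherin usually gained in the transition, N-cadherin CDH2, was low with 1.38, 0.634 and 0.905 CPM. CDH11, a cadherin of mesenchymal and bone-forming cells, stood at 428, 476 and 401 CPM and was the dominant cadherin of these cells.

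The PAM50 genes, 50 genes that sort breast tumours into intrinsic subtypes, were expressed for 44 of 50 (88%, against 59.1% of all protein-coding genes), with 2 low and 4 silent. Subtype calls need a reference cohort and were not made. The 21 proliferation genes of the set were expressed without exception, with a median of 102.1 TPM. UBE2C, a ubiquitin-conjugating enzyme of mitosis, the cyclin CCNB1, CDC20 and the cytokinesis protein ANLN led them (428, 424, 303 and 302 TPM), and neither UBE2C and CCNB1 nor CDC20 and ANLN kept 1 order in the 3 libraries. MKI67, the proliferation antigen Ki-67, had 375, 289 and 294 CPM. Of 14 luminal genes of the set 11 were expressed and 3 silent, namely ESR1, PGR and FOXA1. Of 10 basal genes 7 were expressed, nearer to that background, with KRT5 and KRT14 low and MIA, a secreted protein also made by melanoma cells, silent.

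Genes that mark other cell types were mostly undetected, and a few were clearly expressed. In RNA from a whole culture, a low level in many cells and a higher level in few cells cannot be told apart. All 6 erythroid markers were silent, with 1 count in all. The 12 immune markers summed to 32.3 to 41.2 CPM, mostly from CD14, the lipopolysaccharide co-receptor, at 29.7, 33.6 and 38.5 CPM. PTPRC, the pan-leukocyte marker CD45, was low (6, 7 and 14 counts), and CD3E, MS4A1 and NKG7 of lymphocytes had 0 counts in each library. The 8 endothelial markers summed to 15.5 to 27.4 CPM, with PECAM1 at 15.5 ± 5.82 CPM and the VEGF receptor KDR at 4.78 ± 0.747 CPM, while CDH5, TIE1, ERG and CLDN5 were silent and VWF was low (0.291 CPM). Of 6 adipocyte genes PPARG, a nuclear receptor, was expressed (56.2 ± 12 CPM), and ADIPOQ, LEP and FABP4 had 0 counts. Of 10 fibroblast genes, COL1A2 (110.3, 132 and 158 CPM), PDGFRB (19.8 CPM), COL1A1 (13.3 CPM) and LUM (5.14 CPM) were expressed, and DCN, PDGFRA, THY1 and POSTN were silent. The 2 kinds of collagen I chain were thus unequal, with COL1A2 above COL1A1 per length (51.7 against 6.2 TPM). Of 6 hepatocyte genes SERPINA1, the protease inhibitor alpha-1-antitrypsin, was expressed at 76, 183 and 216 CPM, lowest in library 0412, whereas ALB, APOA1, APOB, TTR and FGB were silent. Each list thus held genes that were silent or low, HBB, PTPRC, CDH5, ADIPOQ, DCN and ALB among them. Each list but the erythroid one also held expressed genes, such as PECAM1, KDR, COL1A2 and PDGFRB.

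In 46 gene families, taken whole by symbol, 318 of 1447 memberships were expressed, 194 low and 935 silent, against 59.1% expressed and 30.6% silent among all protein-coding genes. The share of expressed members was above that background in 12 families and 0 in 5. The olfactory receptors, with 0 of 415 expressed, weigh heavily in the sum. In 176 of 277 pairs of expressed members next to each other in mean TPM, that order held in all 3 libraries. With the canonical transcript length 172 of the 277 pairs stood in the order of their mean TPM in all 3 libraries, and 40 stood in the opposite order in all 3.

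**Figure D3:**
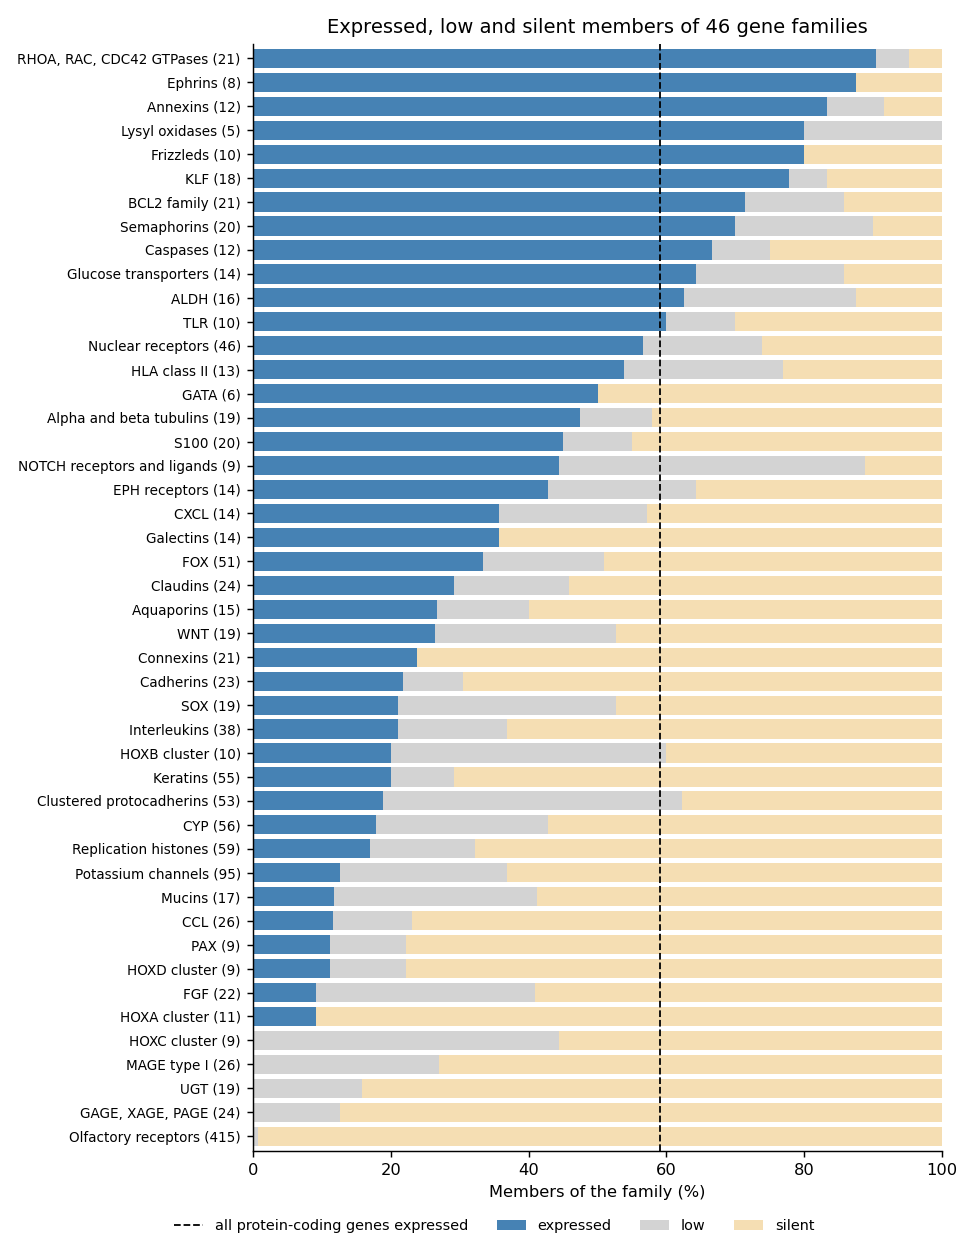
Share of the members (horizontal, percent) of 46 gene families, 1 bar per family with its number of members in brackets, that were expressed (blue), low (grey) or silent (sand) in the 3 siCTR libraries. The dashed line marks the 59.1% of all protein-coding genes that were expressed, with the RHOA, RAC and CDC42 GTPases, ephrins and annexins above 80% at the top and the HOXC cluster, MAGE, UGT, GAGE and olfactory receptor families at 0 at the bottom.

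Keratins, the intermediate filaments of epithelia, were expressed for 11 of 55 members and silent for 39. KRT18, KRT19 and KRT8 held 77.3% of the family's summed TPM. The next per length were KRT7, KRT80 (143 ± 22 CPM), KRT10 (29.4 ± 1.1 CPM) and KRT81 (9.77 ± 2.1 CPM), a hair keratin that shares reads with near-identical relatives. Keratins of stratified and cornified epithelium divided, since KRT10, KRT15 and KRT17 were expressed (29.4, 3.23 and 1.64 CPM) whereas KRT1, KRT2 and KRT13 had 0, 1 and 2 counts in all. Claudins, which seal tight junctions, were expressed for 7 of 24, with CLDN4, CLDN7 and CLDN12 highest (129.6, 75.4 and 48.1 TPM, in this order in all 3 libraries). CLDN1 and CLDN2 followed (37.2 and 28.3 TPM) and did not keep 1 order, since CLDN1 had 8.45, 22 and 66.6 CPM and was far higher in library 1311. CLDN8, CLDN10, CLDN14 and CLDN5 of endothelium had 0 counts. Connexins, which form gap junctions, were expressed for 5 of 21 and silent for the other 16. GJB2 held 66.5% of their TPM (22.8 ± 8.29 CPM), and GJA1, the connexin found in most tissues, had 4.08 ± 1.98 CPM.

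Cadherins were expressed for 5 of 23 members, and CDH11 alone held 73.7% of their TPM (137 ± 12.8 TPM). CDH24, CDH4, CDH1 and P-cadherin CDH3 followed (18.9, 14.8, 11.9 and 2.35 TPM). The family thus centred on CDH11 and neither on E-cadherin nor on N-cadherin. Clustered protocadherins, adhesion proteins of neurons that individual cells choose from a gene array, had 10 of 53 expressed and 23 low, from PCDHGB2 (16.1 ± 2.13 CPM) and PCDHB13 (10.5 ± 1.55 CPM) down. The beta and gamma arrays supplied these 10. All 15 members of the alpha array were silent, and the highest of them, PCDHA7, had 3, 1 and 1 counts.

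Homeobox genes of the HOX clusters, which fix position along the body axis, were close to silent. In the A cluster 10 of 11 genes had 0 counts in each library, and HOXA13 at its end had 2.8, 3.81 and 2.62 CPM. In the B cluster HOXB9 (7.47 ± 1.19 CPM) and HOXB3 (2.98 ± 1.19 CPM) were expressed, 4 genes were low and 4 silent. In the C cluster none of 9 was expressed, although HOXC6, HOXC9, HOXC8 and HOXC4 had traces between 0.143 and 0.394 CPM. In the D cluster HOXD1 (3.04, 2.71 and 3.26 CPM) was expressed and 7 of 9 genes had 0 counts. Expressed HOX genes were thus few in each cluster, and HOXB9 had the highest level of the 4 clusters per length (12.1 TPM). PAX genes, regulators of organ formation, were expressed for 1 of 9, PAX8 (25.9, 39.7 and 52.7 CPM), a gene with an antisense lncRNA, PAX8-AS1, that overlaps it and was itself expressed (113 CPM). Whether the counting used strand is not stated, so reads of the pair may not be separated.

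Other transcription factor families ranged from few to most members expressed. SOX factors were expressed for 4 of 19, SOX9, SOX4, SOX12 and SOX13 (93.1, 53.1, 29.9 and 25 TPM), and the neural crest factor SOX10 had 0 counts. Forkhead factors were expressed for 17 of 51, led by FOXM1, a driver of the G2 and M phases, at 116 ± 14.5 TPM. FOXP4, FOXQ1, FOXJ3 and FOXK2 came next by mean (94, 65.8, 57.7 and 55.7 TPM), but FOXQ1, FOXJ3 and FOXK2 did not keep 1 order. With the canonical length FOXK2 had a higher mean than FOXJ3 and FOXQ1 (60.7, 43.5 and 37.6 TPM). Within the FOXA subgroup FOXA2, a factor of endoderm, was expressed at 19, 19.4 and 16.6 CPM, FOXA3 was low (0.706 CPM) and FOXA1 was silent. GATA factors were expressed for 3 of 6, with GATA6 above GATA3 and GATA2 in all 3 libraries (39, 18.1 and 7.91 TPM). Kruppel-like factors were expressed for 14 of 18. KLF6 led at 349 ± 37.4 CPM, and KLF1, the factor of red cells, had 1 count.

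Nuclear receptors were expressed for 26 of 46, near the background share. RXRB, a shared dimer partner, NR2F2 (COUP-TFII), the glucocorticoid receptor NR3C1 and PPARD led with all exons (121, 90.6, 86.9 and 84.3 TPM). With the canonical length RXRB stayed first, but PPARG and NR1H2 (75.8 and 73.9 TPM) came above NR3C1, NR2F2 and PPARD (67.1, 63.4 and 57.5 TPM). NR3C1 had 203, 199.8 and 167 CPM, while the receptor genes ESR1 and PGR were silent. The vitamin D receptor VDR and the mineralocorticoid receptor NR3C2 had 9.54 and 11.1 CPM. HNF4A, of liver and gut, had 0 counts.

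In the WNT pathway, receptors outnumbered ligands. Frizzled receptors were expressed for 8 of 10, with FZD6, FZD7 and FZD2 highest (94, 63 and 29.6 TPM, in this order in all 3 libraries) and FZD9 and FZD10 at 0 counts. WNT ligands were expressed for 5 of 19: WNT5B (23.8, 20.2 and 21 CPM), WNT7B (25.4, 22.3 and 17 CPM), WNT9A, WNT3 and WNT2B (11.5, 7.5 and 3.11 CPM). WNT5A, a ligand often linked to invasion, was low with 4, 3 and 1 counts, far below its close relative WNT5B. In the NOTCH pathway the receptor NOTCH2 (387 ± 14.2 CPM) and the ligand JAG1 (166 ± 76.8 CPM) dominated, NOTCH1 and JAG2 were expressed (41.9 and 16.8 CPM), NOTCH3, NOTCH4, DLL1 and DLL4 were low, and DLL3 had 0 counts. FGF ligands were expressed for 2 of 22, FGF5 (6.41 ± 3.06 CPM) and FGF1 (1.95 ± 0.237 CPM), and FGF2 had 2 counts in all.

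EPH receptors, which read contact with neighbouring cells, were expressed for 6 of 14 and their ephrin ligands for 7 of 8. EPHA2 held 81.1% of the receptors' TPM, with 393, 426 and 563 CPM, and EPHB4 and EPHB2 followed (466, 64.6 and 29.5 TPM). The most abundant ligand was of the B class, EFNB2 (66.2 ± 16.2 CPM), and per length EFNA1 and EFNA5 came next (55.5, 29.1 and 23.3 TPM). Semaphorins, guidance proteins, were expressed for 14 of 20, with SEMA3C (243 ± 104 CPM) holding 37.3% of their TPM and SEMA4B next (116 ± 8.09 CPM).

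Cytokine genes were few but some were strong, and they differed between libraries. Interleukins were expressed for 8 of 38. IL6, a cytokine of the acute phase, had 65.2, 137 and 239 CPM, IL32 28.1, 44.1 and 47.7 CPM and IL1B 5.96, 29.9 and 44.3 CPM. IL6 was highest in library 1311 and lowest in 0412. IL18, IL1A, IL11, IL15 and IL12A were also expressed (15.5, 11.7, 8.89, 8.29 and 1.19 CPM), while IL2, IL4, IL10, IL17A and IL22, cytokines of immune cells, had 0 counts. Of 14 CXCL chemokines 5 were expressed. CXCL8 (interleukin 8), which attracts neutrophils, had 73.1, 315 and 442 CPM, and CXCL1 9.36, 69.2 and 137 CPM. The family sum ran from 104.7 to 678 CPM, lowest in library 0412, so its members carry an error far larger than most genes here. CXCL12 had 0, 0 and 1 counts, and CXCL9 had 0. Of 26 CCL chemokines CCL2, CCL26 and CCL28 were expressed (14.6, 4.46 and 14.3 CPM) and 17 had 0 counts in each library. Toll-like receptors were expressed for 6 of 10, near the 59.1% of all protein-coding genes. TLR2, TLR4 and TLR3 led (41.5, 34 and 13.3 CPM), and TLR7, TLR8 and TLR9 were silent. HLA class II genes, the antigen-presenting molecules typical of immune cells, were expressed for 7 of 13, also near the 59.1% of all protein-coding genes. HLA-DRA had 62.9, 81.1 and 69.5 CPM, and HLA-DMA, HLA-DPA1 and HLA-DRB1 34.4, 43.5 and 31.2 CPM, but HLA-DQA1 had 1, 0 and 0 counts and HLA-DQB1 was low (0.156 CPM). Reads of the polymorphic HLA genes may be lost in alignment.

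S100 proteins, small calcium sensors, showed a sharp division between high and silent members. Of 20, 9 were expressed, 2 low and 9 silent. S100A6 had 2891, 3855 and 3574 CPM, and it held 56.7% of the family's TPM. S100A4, S100A11 and S100A10 followed (4126, 3281 and 2429 TPM), and S100A4 and S100A11 did not keep 1 order. S100A8 and S100A9, the subunits of calprotectin made by myeloid cells and stressed keratinocytes, and S100A12 had 0 counts in each library, although they lie in the same cluster on chromosome 1. S100A7, psoriasin, had 1, 0 and 0 counts and S100B 0, 0 and 1 counts. Annexins, which bind membranes in a calcium-dependent way and of which ANXA2 pairs with S100A10, were expressed for 10 of 12. ANXA2 led by CPM (1825 ± 238 CPM) and ANXA5 by TPM (1143 ± 111 TPM), but with the canonical length ANXA2 was above ANXA1 and ANXA1 above ANXA5 in all 3 libraries. Galectins were expressed for 5 of 14, with LGALS1 (1941 ± 296 TPM) at 75.7% of the TPM and LGALS3 next (345 ± 15.8 TPM).

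The stretches upstream of silent and expressed genes differed in their content of CG dinucleotides, the sites of DNA methylation, which cluster in the CpG islands of many promoters. RefSeq windows of GRCh38.p14 were at hand for 15299 of the 19773 protein-coding genes, 1 per gene, and the 250 bases before the transcript start were searched for CG, which reads the same on both strands, and for TATAAA on either strand. The 2 motifs cannot overlap. The median was 22 CG (quartiles 16 and 29) before 9583 expressed genes, 12 (4 and 24) before 1473 low genes and 5 (2 and 15) before 4243 silent genes, against 19 for all. A count of 20 or more was found for 61.3% of expressed, 34.6% of low and 18.3% of silent genes (46.8% of all). TATAAA was found for 4.54% of expressed, 10.5% of low and 18.8% of silent genes (9.07% of all). Within the expressed class the median CG count was 20, 22 and 24 at means under 10, from 10 to 100 and at 100 CPM or more, so it varied less with the level than between classes. A match is a description of the sequence and says nothing about methylation, which was not measured. Genes in families share ancestry and position, and no test was made.

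**Figure D4:**
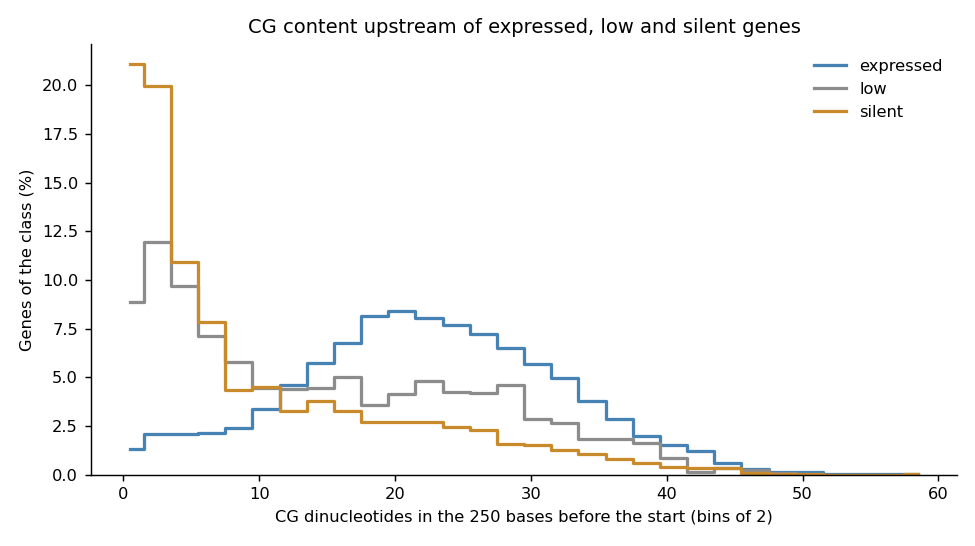
Share of the genes of each class (vertical, percent) by the number of CG dinucleotides in the 250 bases before the transcript start (horizontal, in bins of 2) for 9583 expressed, 1473 low and 4243 silent protein-coding genes. Silent genes pile up below 10 CG with a median of 5, expressed genes form a broad hump around their median of 22, and low genes hold both.

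Families filled the silent class in different ways. The 16 silent HOX genes with a window had a median of 21 CG, and 9 silent WNT genes one of 29, at the level of expressed genes. The 28 silent keratins and 20 silent CYP genes had a median of 2 and the 305 silent olfactory receptors one of 1. The S100 genes show both kinds of window side by side on chromosome 1, and they are printed here with EGFR and FOXA1, an expressed and a silent gene with nearly the same CG count, to let the windows be compared. Each line gives the 250 bases that precede the start, 5′ to 3′ on the strand of the gene in GRCh38.p14, with CG in capitals.
S100A6 (chr1:153535992-153536241, minus strand): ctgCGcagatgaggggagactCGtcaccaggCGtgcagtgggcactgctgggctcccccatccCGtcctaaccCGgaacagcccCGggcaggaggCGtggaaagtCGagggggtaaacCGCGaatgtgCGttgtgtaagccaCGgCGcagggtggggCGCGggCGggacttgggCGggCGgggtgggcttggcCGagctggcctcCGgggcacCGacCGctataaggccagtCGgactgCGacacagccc
S100A4 (chr1:153545807-153546056, minus strand): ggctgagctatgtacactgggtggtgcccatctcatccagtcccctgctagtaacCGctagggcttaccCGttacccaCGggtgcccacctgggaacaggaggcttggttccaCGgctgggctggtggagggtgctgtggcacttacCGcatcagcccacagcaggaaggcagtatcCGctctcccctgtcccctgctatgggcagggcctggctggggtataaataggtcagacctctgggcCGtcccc
S100A8 (chr1:153391074-153391323, minus strand): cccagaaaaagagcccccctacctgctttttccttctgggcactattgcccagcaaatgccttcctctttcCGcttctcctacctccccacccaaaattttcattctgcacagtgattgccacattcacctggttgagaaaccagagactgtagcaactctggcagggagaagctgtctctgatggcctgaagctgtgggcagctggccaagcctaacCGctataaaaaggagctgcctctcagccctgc
S100A9 (chr1:153357604-153357853, plus strand): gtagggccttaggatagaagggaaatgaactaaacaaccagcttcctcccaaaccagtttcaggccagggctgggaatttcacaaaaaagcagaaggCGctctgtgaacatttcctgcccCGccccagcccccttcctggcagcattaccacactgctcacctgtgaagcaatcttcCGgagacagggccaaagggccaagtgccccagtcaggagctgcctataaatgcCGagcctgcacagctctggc
EGFR (chr7:55018767-55019016, plus strand): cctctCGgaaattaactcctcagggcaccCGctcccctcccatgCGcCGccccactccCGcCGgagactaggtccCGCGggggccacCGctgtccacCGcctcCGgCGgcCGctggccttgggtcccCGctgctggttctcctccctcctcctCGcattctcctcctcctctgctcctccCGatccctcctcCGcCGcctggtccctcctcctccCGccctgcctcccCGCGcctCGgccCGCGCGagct
FOXA1 (chr14:37595250-37595499, minus strand): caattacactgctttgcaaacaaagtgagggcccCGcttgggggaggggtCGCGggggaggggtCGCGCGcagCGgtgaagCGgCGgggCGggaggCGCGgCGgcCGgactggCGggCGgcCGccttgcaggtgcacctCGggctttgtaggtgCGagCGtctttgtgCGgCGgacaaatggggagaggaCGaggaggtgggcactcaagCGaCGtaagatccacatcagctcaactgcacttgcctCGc
S100A6, the most abundant of the 6, has 24 CG and no TATAAA in this window. S100A4, also expressed, has 7 CG and 1 TATAAA. S100A8 and S100A9, both at 0 counts, have 2 and 4 CG and 1 TATAAA each, and in the 3 windows it reads on the strand of the gene. The number of CG thus separated S100A6 from its silent relatives but hardly S100A4, although S100A4 stood at 932 CPM. EGFR and FOXA1, with 25 and 26 CG, show nearly the same count in opposite classes, EGFR at 300.5 CPM and FOXA1 with 1 count in the 3 libraries.

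Cytoskeletal families were expressed as a rule, with 1 or a few members dominant. The GTPases related to RHOA, RAC1 and CDC42, switches of actin organisation, were expressed for 19 of 21, the highest share of the 46 families. RHOA led (761 ± 55.4 CPM), with RAC1 and CDC42 at 476 and 461 CPM. RAC2, usually restricted to blood cells, had 198, 199.7 and 208 CPM and exceeded RAC1 per length with all exons (323 against 241 TPM), but not with the canonical transcript (328 against 493 TPM). RHOH, also a gene of blood cells, had 0 counts. Alpha and beta tubulins were expressed for 9 of 19. TUBB (3400.2 ± 391 TPM), TUBA1B (1205 ± 181 TPM) and TUBB4B (1014 ± 61.6 TPM) held 82.7% of the TPM, in this order in all 3 libraries, whereas the neuronal TUBB3 was low (0.746 CPM) and the platelet TUBB1 silent. Tubulin genes are near-identical in their coding parts, and reads shared between them were left out. Lysyl oxidases, which cross-link collagen, were expressed for 4 of 5. LOXL2 had 494, 613 and 726 CPM, and LOX and LOXL4 had 129 and 128 TPM and did not keep 1 order.

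Genes of the RAS-MAPK pathway, through which growth factor receptors act, were expressed for 15 of 15, against 59.1% of all protein-coding genes. Among the RAS genes NRAS stood at 186 ± 12.8 TPM and HRAS at 87.2 ± 3.49 TPM. BRAF had 7.26 ± 0.331 TPM and the RAS inhibitor NF1 4.46 ± 0.0746 TPM, a gene of long transcripts that still gave 43.8 CPM. Of 15 tumour suppressors 13 were expressed (86.7%). RB1 had 100.3 ± 7.18 CPM, the CDK inhibitor CDKN1A 104, 105 and 94.5 CPM and the repair genes BRCA1 and BRCA2 29.5 and 18.8 CPM. CDKN2A and CDKN2B were the exception, with 0 counts. The level of an mRNA does not show whether its protein works.

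CDKN2A and CDKN2B, the inhibitors of CDK4 and CDK6, belonged to a run of neighbouring genes without a single count. From HACD4 to IZUMO3 on chromosome 9 (chr9:20999509-24545946, GRCh38) 24 consecutive protein-coding genes had 0 counts in each of the 3 siCTR libraries, and also in each of the 3 siCSRP2 libraries. They comprised 16 genes of type I interferons, which are silent in most cells, but also MTAP, the methylthioadenosine phosphorylase of the methionine salvage pathway, and KLHL9, an adaptor of ubiquitin ligation, both known to be made in most cell types. On either side the genes were expressed: FOCAD, before the run, had 4.34, 3.86 and 4.66 CPM, and MLLT3 before it 28.2, 27.3 and 25.1 CPM. TUSC1, after the run, had 6.95, 6.63 and 5.75 CPM, CAAP1 27.7, 31.4 and 26 CPM and PLAA 73.9, 66.7 and 64.4 CPM. The step from expressed genes to 0 counts was thus present in each library, although LRRC19, farther on, also had 0 counts. Of 71 genes of any kind annotated between FOCAD and TUSC1, 3 had counts, 39 in the siCTR libraries together. Runs without counts are common in arrays of tissue-specific genes: by the number of genes this run shared rank 6 in the genome with another, and the longest, on chromosome 11, held 72 genes of which 63 were olfactory receptors. The run is singled out because it holds MTAP, KLHL9 and CDKN2A, and it was found with the known place of CDKN2A in view. The files hold no measurement of DNA, so the copy number of the interval was not tested.

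**Figure D5:**
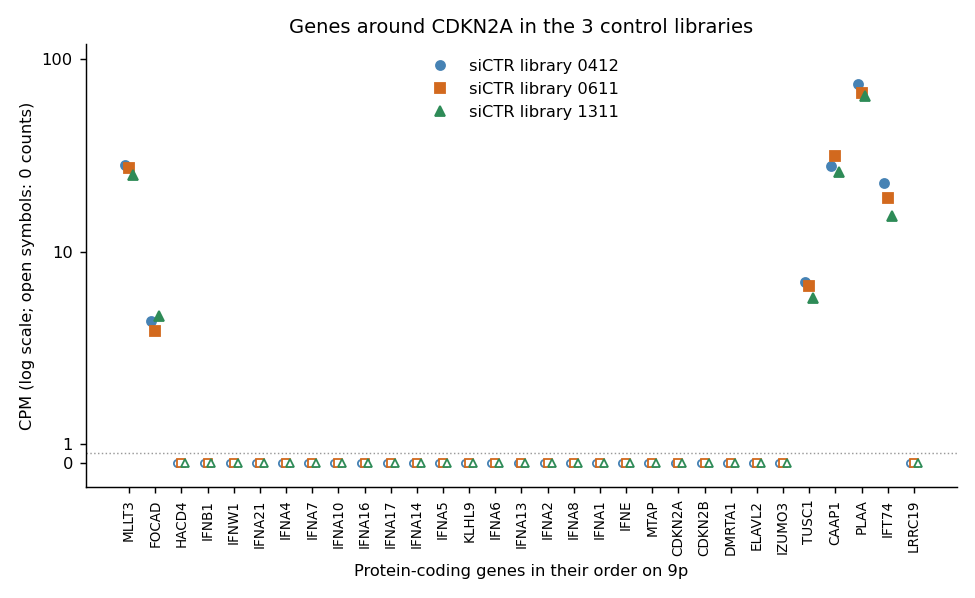
Level in CPM (vertical, log scale, with 0 counts drawn below the dotted line as open symbols) of the protein-coding genes on the short arm of chromosome 9 from MLLT3 to LRRC19, in their order along the chromosome (horizontal), 1 symbol per siCTR library. The 24 genes from HACD4 to IZUMO3 are at 0 in each library, between FOCAD at 4.29 CPM and TUSC1 at 6.44 CPM.

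Of 21 apoptosis genes of the BCL2 family 15 were expressed, a share not far above the 59.1% of all protein-coding genes. The survival genes BCL2L1 (BCL-XL) and MCL1 led (531 ± 19.8 CPM and 349 ± 52.3 CPM), whereas BCL2 itself had 5.7 ± 1.61 CPM, so per length BCL2L1 was above MCL1 and both were above BCL2 in all 3 libraries (530.0, 235 and 1.89 TPM). The pro-apoptotic effectors BAK1 and BAX had 94.8 and 71.6 CPM. Caspases were expressed for 8 of 12, also not far above that share. Among them were the executioner CASP6 (28.9 CPM) and the initiators CASP8 and CASP9 (31.9 and 14.4 CPM). CASP1, of the inflammasome, was low (0.79, 1.15 and 0.543 CPM), although IL1B and IL18, the cytokines it cuts, were expressed, and CASP14, of the skin, had 0 counts.

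Transport and metabolic families ranged from none to most members expressed, against 59.1% of all protein-coding genes. Of 14 glucose transporters 9 were expressed, a share near that background. SLC2A1 (GLUT1) held 70.9% of their TPM (708, 618 and 697 CPM), while the insulin-responsive SLC2A4 was low and the hepatic SLC2A2 had 0 counts. Of 16 aldehyde dehydrogenases 10 were expressed, also near the background. ALDH1A1, used as a marker of breast cancer stem cells, had 0, 0 and 1 counts, whereas ALDH1A3, which gives the same activity, had 14.4, 21.1 and 13.3 CPM. Of 56 cytochrome P450 genes 10 were expressed, and CYP1B1, which oxidises estrogens and aromatic hydrocarbons, held 56.9% of the TPM (170.4, 285 and 264 CPM). CYP19A1, the aromatase that makes estrogens, was low (11, 2 and 2 counts), and CYP3A4, of the liver, had 1 count. None of 19 UGT genes, which conjugate drugs and steroids, was expressed, and 12 had 0 counts. Aquaporins were expressed for 4 of 15, AQP5, AQP3, AQP1 and AQP11 (means of 23.6, 26.6, 27.3 and 1.56 CPM). AQP5 had 9.36, 25 and 36.4 CPM and AQP3 9.56, 30.1 and 40.3 CPM, both lowest in library 0412. AQP1 had 36.8, 24.1 and 21.2 CPM and was highest in library 0412. Of 95 potassium channel genes 12 were expressed and 60 silent, with KCNN4, a calcium-activated channel, at 46.5% of the TPM (46.9 ± 10.6 CPM).

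Among mucins, MUC1, the transmembrane mucin of luminal cells, supplied 99.3% of the TPM (50.3, 89.3 and 114 CPM). It was highest in library 1311 and lowest in 0412. MUC4 was also expressed (3.25 ± 1.42 CPM), and MUC2, MUC5AC and MUC16, secreted or carried by other epithelia, were silent. Of 59 replication-dependent histone genes 10 were expressed. Most mRNAs of this family lack a poly(A) tail, and the libraries were made from mRNA. H2BC12 (39.4 ± 8.95 CPM), H2BC5 (19.4 ± 6.71 CPM) and H2AC6 (18.2 ± 5.74 CPM) held 88.8% of the TPM, and 23 had 0 counts.

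Genes restricted to germ cells and sensory neurons were close to absent. Of 26 MAGE genes of type I, none was expressed at 1 CPM in each library and 7 were low, MAGEA3 (1.11, 0.404 and 0.679 CPM), MAGEC1 (2.96, 0.692 and 1.27 CPM) and MAGEA6 (1.34, 0.404 and 0.226 CPM) among them. Each of the 3 was highest in library 0412, and MAGEC1, with a mean of 1.64 CPM, missed the limit in library 0611. None of 24 GAGE, XAGE and PAGE genes was expressed, with PAGE5 (1.24 CPM) the highest. Members of both groups are near-identical copies, so low values may miss reads. None of 415 olfactory receptor genes was expressed, 397 had 0 counts, and the 415 genes together gave 0.865 to 1.13 CPM.

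Genes of cell surface proteins that are targets of approved or experimental therapies were expressed for 25 of 27 (92.6%, against 59.1% of all protein-coding genes). F3 (tissue factor), a target of an antibody-drug conjugate, had 691, 571 and 715 CPM and the highest mean of the list per length (956 TPM). Other abundant members were CDCP1, the receptor EPHA2, AXL and the ectonucleotidase NT5E (CD73), with 546, 466, 445 and 324 TPM. MET had 339 ± 25.6 CPM, CD274 (PD-L1) 28.9, 22.6 and 26 CPM and FOLR1 7.03 ± 1.54 CPM. NECTIN4 and VTCN1 (B7-H4), targets in other breast cancers, had 0 counts in each library.

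Genes used as references in quantitative PCR were expressed for 15 of 15 and spread over a wide range of levels, with GAPDH highest at 5243 ± 528 TPM and TBP at 50.02 ± 3.84 TPM. RPS18 had 1161, 1169 and 1034 CPM, TBP 30.01, 25.7 and 27.3 CPM and B2M 1099, 1211 and 1030.2 CPM. Across the 4695 protein-coding genes whose mean reached 50 CPM the median coefficient of variation between libraries was 7.59%, against 2.13% from counting alone, with 113 genes above 30% and 25 above 50%. DDX46, an RNA helicase of the spliceosome, had the smallest coefficient (169, 169 and 169 CPM), followed by UBL4A, CDC42BPB, INO80 and KDELR1. Their coefficients, 0.192% to 0.232%, are the smallest of 4695 and far below the median from counting alone. They therefore do not show that these 5 genes are steadier than others. The most variable were PMEPA1, a target of TGF-beta, at 155, 38.1 and 32.9 CPM, CXCL1, AKR1B1 at 597, 2093 and 4905 CPM, AKR1C1 at 53.7, 211 and 432 CPM and the inositol transporter SLC5A3 at 232, 991 and 1752 CPM. PMEPA1 was high in library 0412 alone, whereas the other 4 were lowest in 0412 and highest in 1311. Of the 100 most variable genes 67 were highest in library 1311, 29 in 0412 and 4 in 0611. Means of such genes, AKR1B1 in the first 20 among them, describe no single library well. What sets the libraries apart was not tested, and the codes are not explained in the labels.

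The classes were applied unchanged to the 3 siCSRP2 libraries, which took no part in the calls. Of the 11682 expressed genes 11458 (98.1%) met the same limit there, and of the 6048 silent genes 5788 (95.7%) did. No gene of either class fell into the opposite class. These libraries received another siRNA, so a changed call can come from the spread between libraries or from the treatment, which cannot be told apart here.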

How the data were processed

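RNA-seq libraries of MDA-MB-231 cells were prepared with a stranded mRNA kit and sequenced as paired-end reads of 75 bases. The authors aligned the reads to GRCh38 with STAR and deposited its raw counts per Ensembl gene, with no normalization. The version of STAR, its gene annotation and whether strand was used are, in the sources used here, not given. Of the 6 columns, the 3 labelled siCTR were described. The columns name a group and a code, but the codes are not tied to the replicate numbers of the labels.

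CPM were computed here as the count over the column total, and TPM from joined exon lengths of GENCODE 44, with which 57754 of 58395 genes were matched. Totals ranged from 17336798 to 25321830 counts, and 1 count was worth 0.0395 to 0.0577 CPM. No test between groups was run, and limits from counts cover counting error only. The gene lists and families, and the genes named, were chosen with earlier results of these data known. Some genes of these lists are not reported here. Genes were named if they were in a list of markers, among the 20 highest by CPM or TPM, among up to 5 highest by TPM of a family or silent members for which that family is known, among the 5 most or 5 least variable genes at 50 CPM or more, or beside the silent run on chromosome 9. Alternatives were a limit of 0.5 or 5 CPM, 1 TPM, a floor of 0 or 10 counts, TMM scaling (edgeR 4.0.16, R 4.3.3), DESeq2 1.42.0 size factors, thinning to the smallest library, canonical transcript lengths, nuclear genes alone and leaving out each library. The class calls and scripts were tested on simulated counts. Python 3.11.15, numpy 2.4.6, pandas 2.3.3 and matplotlib 3.10.9 were used. Promoter windows come from RefSeq (GRCh38.p14).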

Additional observations from a re-analysis of the deposited data

How the results depend on the processing

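The number of expressed protein-coding genes ran from 10212 at a limit of 5 CPM to 12157 at 0.5 CPM, and that of silent genes from 4351 with a floor of 0 counts to 6999 with a floor of 10, against 11682 and 6048. The 20 most abundant genes held 6.90% of the counts when nuclear genes alone were taken, against 7.30%. Of 66 alternatives of the results other than the family counts 65 stayed within their limit. Of 690 alternatives of the counts of members of single families 48 moved by more than 1.5 times, 24 of them with a floor of 0 counts and 12 at 5 CPM. The order per length was less stable, as 40 of 277 neighbouring pairs stood in the opposite order in all 3 libraries with canonical lengths. TMM factors lay between 0.984 and 1.01, and DESeq2 size factors spread more widely and followed the totals. No paired analysis was possible because each result describes the siCTR group alone and none comes from a test between groups, although the column codes recur in both groups.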
